A study of Mus musculus with 20 samples.

Results

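The genes described here are those of the proteasome, chosen by symbol: every mouse gene whose symbol starts with Psma, Psmb, Psmc, Psmd, Psme or Psmf followed by a number, without the pseudogenes. The rule found 47 of the 46318 genes in the files and used no measured value. Of these, 45 encode proteasome subunits, activators, an inhibitor or assembly chaperones of the complex. The other 2 only share the symbol's start: Psmc3ip, a cofactor of recombinases, and Psme3ip1, a partner of the activator encoded by Psme3. They are kept in the counts of the whole set and are marked where they appear. The immunoproteasome subunits Psmb8, Psmb9 and Psmb10 are reported apart from the constitutive ones.

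The cells were macrophages differentiated from the bone marrow of female C57BL/6 mice in a recombinant murine factor that the labels spell M-DSF, and their RNA was sequenced. Mature cells received the solvent DMSO, DSHN at 50 µM, GW3965 at 1 µM or both compounds at these doses for 24 h, with 5 biological replicates each and 20 libraries in all. The labels call DSHN an agonist of the nuclear receptor NR0B2 and GW3965 an agonist of LXR, a receptor that controls cholesterol homeostasis. All 4 groups share strain, sex and growth factor, and the labels do not say whether replicates came from separate mice, so p-values measure the spread between these cultures. The libraries held 16855029 to 23796561 counts. Summed levels of 8 macrophage markers were 16020 to 19390 CPM (counts scaled to a common library size) across all 20 libraries. The 6 neutrophil markers summed to at most 1.351 CPM and the 4 erythroid markers to at most 0.2904, with Hba-a1 and Hbb-bt at 0. The 6 T and NK cell markers reached 13.2 CPM, the 5 B cell markers 8.107 and the 5 dendritic cell markers 2.166. Cd4 gave most of the T and NK cell sum and Cd79b most of the B cell sum. The 5 fibroblast markers summed to 2046 to 2596 CPM in the DMSO libraries and 1737 to 2109 with both compounds, nearly all from Col1a1 and Col1a2. Lyz2 gave most of the macrophage sum. With both compounds against DMSO, 3 of the 8 macrophage markers were higher and 4 lower, and 2 and 6 with the correction for gene length described below. Of all tested genes 31.9% were higher and 32.9% lower, and 28.8% and 29.3% with the correction. Among the lower markers were Adgre1 (log2 fold change -0.43), Csf1r (-0.29) and Itgam (-0.51). The part of these marker genes in the results was not tested.

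The 26S proteasome degrades proteins tagged with ubiquitin. Its barrel-shaped core is built from rings of alpha subunits, which gate the entrance, and beta subunits, of which Psmb5, Psmb6 and Psmb7 encode the proteolytic sites. A regulatory particle caps the core: the Psmc genes encode its ATPases, which unfold the substrate, and most Psmd genes encode its other subunits, which include a ubiquitin receptor, a deubiquitinase and scaffold subunits. In immune cells Psmb8, Psmb9 and Psmb10 can take the place of Psmb5, Psmb6 and Psmb7, which favours peptides that fit MHC class I, and the Psme genes encode alternative caps. NFE2L1 is known to raise transcription of many proteasome genes when proteasome activity falls, through antioxidant response elements (AREs) in their promoters, and interferon raises the immunoproteasome genes, in part through IRF factors.

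Promoter windows were read from RefSeq (GRCm38.p6) for 40 of the 47 genes, in 44 windows, each from 250 bases before the annotated start to 50 after it. The ARE core TGACNNNGC, searched on both strands, stood in 6 of the 44 windows, of 6 genes: Psmb5, Psmb6, Psmc6, Psmd9, Psmd12 and Psme4. It stood in 12.39% of 32851 windows of the same length over all genes. The stretches around it are shown for the 5 genes in which it lies before the start, since these genes moved differently with both compounds. Capitals mark the core, and each sequence reads 5′ to 3′ on the gene's strand.
Psmb5: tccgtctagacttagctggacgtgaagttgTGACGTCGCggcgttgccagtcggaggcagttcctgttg
Psmb6: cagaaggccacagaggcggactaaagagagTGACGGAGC
Psmc6: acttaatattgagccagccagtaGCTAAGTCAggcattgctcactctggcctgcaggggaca
Psmd9: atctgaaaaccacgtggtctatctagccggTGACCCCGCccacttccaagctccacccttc
Psmd12: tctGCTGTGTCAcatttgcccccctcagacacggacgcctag
These lie at chr14:54618004-54618072 on the minus strand for Psmb5, and on the plus strand at chr11:70525318-70525356 for Psmb6, chr14:45329574-45329635 for Psmc6, chr5:123228129-123228189 for Psmd9 and chr11:107479278-107479319 for Psmd12. The core reads on the opposite strand in Psmc6 and Psmd12. Among the immunoproteasome genes, Psmb8 held the interferon-type letters TTCNNNGAA, a pattern found in 8.3% of all windows, on the gene's strand at chr17:34198068-34198136.
Psmb8: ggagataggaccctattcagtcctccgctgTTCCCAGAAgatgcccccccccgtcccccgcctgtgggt
The only other gene of the set with that pattern was Psmd2. The pattern GAAA-NN-GAAA of interferon-stimulated promoters stood in Psmb3, Psmd4, Psmd9 and Psme1, against 3.44% of all windows, and CCAAT in 16 of the 44 windows, against 37.41%. No match overlapped a match of another pattern. A match describes letters and is not a site of binding.

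Nearly all of these genes were transcribed in the macrophages. Of the 47, 46 had enough counts to be tested, among 13307 tested genes in all. Psmb11, the thymus-specific catalytic subunit, had 0 counts in every library. Psma8, the alpha subunit of the testis, passed the filter with 42 to 82 counts a library, and its mean was 3.25 ± 0.280 CPM (SD, n = 5) with DMSO. Together the 47 genes took 0.484% ± 0.0164 (SD, n = 5) of the counts in the DMSO group, 0.470% ± 0.017 in the DSHN group, 0.4651% ± 0.0183 in the GW3965 group and 0.5449% ± 0.0106 in the group with both compounds. The libraries with both compounds ranged from 0.5332% to 0.5619% and all lay above the highest of the other 15, at 0.5027%. In bulk samples like these, more RNA per cell and more cells of one kind cannot be told apart.

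Per kilobase of exon, the DMSO levels of core subunits lay within a few fold of each other. In the alpha ring, Psma6 (129 ± 6.502 CPM per kilobase), Psma2 (128 ± 6.31) and Psma1 (127 ± 3.88) were highest and did not differ beyond their spread. Psma4 (81.3 ± 5.32), Psma7 (64.3 ± 4.08) and Psma5 (55.0 ± 3.03) followed. Psma3 was lowest, at 23.5 ± 0.868, and it has the longest exon model of the ring in the files, 3325 bases. Across the regulatory particle the level per kilobase ran from 145 ± 3.74 for Psmd8, the highest of all 47 genes, to 33.4 ± 1.26 for Psmd11. The assembly chaperones of the base were lower: 26.5 ± 1.16 for Psmd5, 17.99 ± 1.10 for Psmd10 and 9.14 ± 0.622 for Psmd9. Psmf1, the proteasome inhibitor, stood at 8.41 ± 0.323.

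With both compounds, most proteasome genes rose above DMSO. Of the 46 tested genes, 30 were called higher and 4 lower in edgeR's quasi-likelihood test with Benjamini-Hochberg adjustment under 0.05, where 64.8% of all tested genes were called, 31.9% higher and 32.9% lower. Their median log2 fold change was 0.24. The 5 libraries with both compounds lay wholly above the 5 DMSO libraries for 29 of the genes and wholly below for 2, against 23.9% and 25.8% of all tested genes. Against GW3965 alone 36 were higher and 2 lower (57.8% of all genes called, 28.3% higher and 29.5% lower), and against DSHN alone 35 were higher and 2 lower (58.1%, 28.6% higher and 29.5% lower). The libraries with both compounds lay wholly above those of GW3965 for 29 genes and wholly below for 1 (19.8% and 22.6% of all tested genes), and above those of DSHN for 32 and below for 2 (19.8% and 22.7%). All 3 comparisons share the libraries with both compounds. The genes called higher against each of the 3 other treatments numbered 30. The share of all tested genes called so was not computed. Psmb8, Psmb9 and Psmb10 were higher in all 3 comparisons. Of the other 41 tested proteasome genes, 26 were higher and 4 lower against DMSO. These counts were 31 and 2 against GW3965, and 31 and 2 against DSHN.

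**Figure D1:**
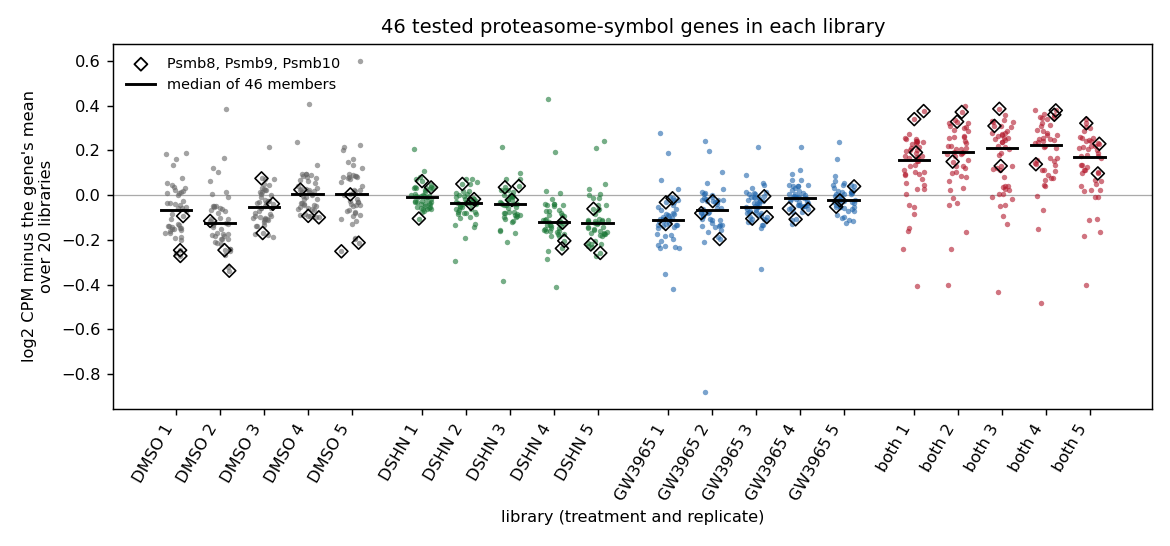
Each point is 1 of the 46 tested genes in 1 library, as log2 CPM minus that gene's mean over the 20 libraries; bars are the medians of the 46 genes and open diamonds are Psmb8, Psmb9 and Psmb10. The medians of the 5 libraries with both compounds run from 0.16 to 0.22 and those of the other 15 from -0.13 to 0.01; this separation is not seen after the correction for gene length described in the text.

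The rise went with gene length. The libraries with both compounds stood apart from the other 15 in how their counts depend on exon length: the slope on log2 exon length of log2 CPM, taken relative to each gene's mean over the 20 libraries, was -0.124 to -0.0943 in those 5 libraries and 0.0057 to 0.0630 in the others, so short genes had relatively more counts there. Proteasome genes are short. Their median exon length was 1479 bases against 3758 for all tested genes, of which 12.6% are shorter than that median. Of the 10 genes of up to 1100 bases, 9 were higher with both compounds than with DMSO and their median log2 fold change was 0.38, where all tested genes of that length had a median of 0.46. For the 13 genes of 1100 to 1500 bases it was 0.28 against 0.33, and for the 9 genes of 1500 to 2000 bases 0.20 against 0.23. For the 14 genes longer than 2000 bases the median was 0.04 against -0.07. Across the 46 genes, log2 fold change and log2 exon length had a Pearson correlation of -0.667, and across all tested genes of -0.393. The points share the same libraries.

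**Figure D2:**
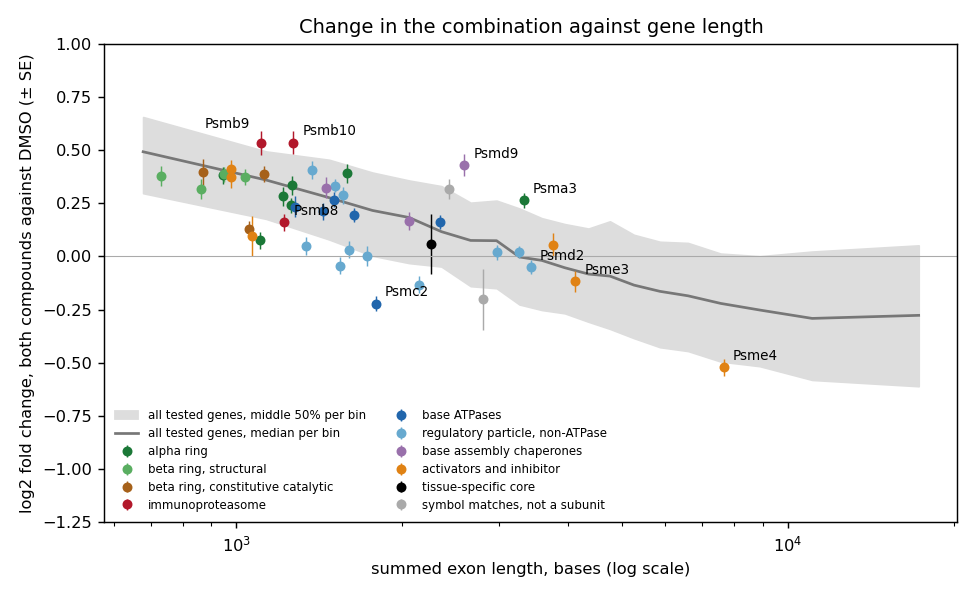
Log2 fold change of both compounds against DMSO (± SE) against summed exon length on a log axis, for the 46 tested genes by role, over the median (line) and middle 50% (band) of all 13307 tested genes. Psmb9, Psmb10, Psmd9 and Psma3 lie above the band, and Psmc2, Psmb7, Psma6 and Psme4 are among the genes below it.

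When each library's trend with exon length was taken out before the test, most of the rises were no longer called. With this length correction 8 of the 46 genes were higher and 11 lower than with DMSO, where 58.1% of all genes were called, 28.8% higher and 29.3% lower, and the median log2 fold change was -0.01. Of the 34 genes called without it, 11 kept their call and sign, while Psmb8 and Psmb7 turned from higher to lower. Against GW3965, Psmb7, Psma6 and Psmd6 turned from higher to lower, and against DSHN, Psmb7, Psmb8 and Psma6. Against GW3965 the counts became 9 higher and 8 lower (47.1% of all genes called, 22% and 25.1% in each direction) and against DSHN 10 and 8 (46.2%, 22.1% and 24.1%). Of the 41 tested proteasome genes other than the immunoproteasome subunits, 5 were then higher and 10 lower against DMSO. These counts were 6 and 8 against GW3965, and 8 and 7 against DSHN. Just 4 of the 46 genes were higher against each of the 3 other treatments both with and without the correction: Psmd4, Psmd9, Psma3 and Psme3ip1. The last of these is no proteasome gene. With the correction, 7 genes were lower against each: Psmb7, Psmd14, Psmc2, Psme4, Psme2b, Psmd3 and Psma6. The shares of all tested genes called against each of the 3 other treatments were not computed. Whether the trend with length comes from the treatment or from how these 5 libraries were made cannot be told apart, since all of them carry it. Values for both compounds against DMSO are therefore given below without and with the correction.

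**Figure D3:**
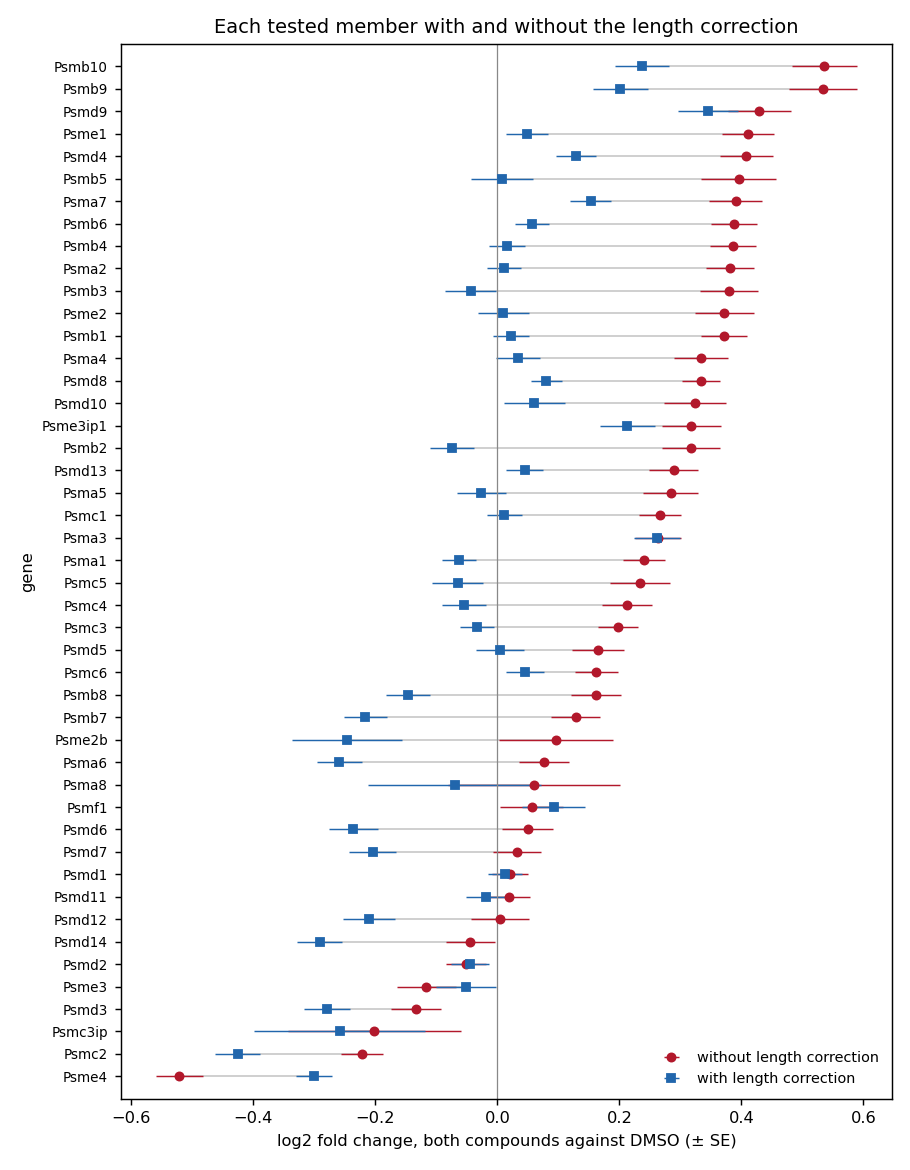
Log2 fold change of both compounds against DMSO (± SE) for each of the 46 tested genes, without (circles) and with (squares) the length correction. Most genes that stand above 0 without it move to near 0 or below; Psmb10, Psmb9, Psmd9 and Psma3 remain above 0, and Psme4 and Psmc2 below.

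The catalytic subunits differed in what the correction left. Psmb8 encodes the immunoproteasome's chymotrypsin-like subunit and was the most abundant of the 3. It had 127, 125, 142, 137.5 and 135.5 CPM in the 5 DMSO libraries, 141, 132, 133, 124 and 129.6 with DSHN, 132, 118, 126, 129.5 and 133 with GW3965, and 154, 150.0, 148, 149 and 145 with both. The libraries with both compounds lay just above the others without overlap. Psmb8 was higher than with DMSO by 0.16 (log2, SE 0.04, adjusted p = 0.00112) in the edgeR fit. With the length correction it was lower by 0.15 (log2 fold change -0.15, adjusted p = 0.000975), so its direction rests on that choice.

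Psmb9, the immunoproteasome's counterpart of Psmb6, was at 31.8, 31.8, 33.5, 35.4 and 32.55 CPM with DMSO. It stood at 38.6, 39.05, 38.65, 32.7 and 31.5 CPM with DSHN, at 34.5, 35.7, 35.1, 35 and 38.8 with GW3965, and at 48.95, 47.4, 49.3, 49.05 and 44.2 with both. Every library with both compounds was above the other 15. It rose with both compounds by 0.53 (log2, SE 0.06, adjusted p = 4.46e-09), and with the length correction by 0.20 (adjusted p = 0.000417). Against GW3965 its corrected value was 0.12 (adjusted p = 0.0258), and against DSHN 0.11 (adjusted p = 0.0528), which was not called. Psmb10 is the counterpart of Psmb7. Its values were 40.7, 38.9, 47.8, 45.85 and 41.3 CPM with DMSO and 45.7, 48.5, 50.5, 41.6 and 42.2 with DSHN. They were 48.6, 48.2, 48.95, 47.1 and 47.4 with GW3965, and 62.2, 63.6, 60.9, 63.0 and 61.4 with both, again with no overlap. It rose by 0.54 (SE 0.05, adjusted p = 1.58e-09) without the length correction and by 0.24 (adjusted p = 5.96e-05) with it. Its call against DSHN also remained with the correction (0.18, adjusted p = 0.00203). Against GW3965 the corrected value was 0.10 (adjusted p = 0.0572), which was not called.

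The constitutive catalytic subunits stood at 32.3, 28.6, 36.3, 34.7 and 35.8 CPM with DMSO and at 43.2, 47.1, 44.2, 45.4 and 40.8 with both compounds for Psmb5. Psmb6, which carries the caspase-like site, had 96.6, 94.4, 101, 99.99 and 102 CPM with DMSO and 125, 130.2, 134, 133 and 124 with both. Neither gene's groups overlapped. The log2 fold change was 0.40 (SE 0.06, adjusted p = 3.04e-06) for Psmb5 and 0.39 (SE 0.04, adjusted p = 1.15e-09) for Psmb6. With the length correction the values were 0.01 (adjusted p = 0.9) and 0.06 (adjusted p = 0.0885). Psmb7, the trypsin-like subunit, had 109.7, 104, 109.8, 119 and 116.5 CPM with DMSO and 120.0, 127, 123, 121 and 120.1 with both. It rose by 0.13 (SE 0.04, adjusted p = 0.00676) without the correction and was lower by 0.22 with it (log2 fold change -0.22, adjusted p = 6.51e-06). With either compound alone, Psmb5 lay at 30.4 to 37.6 CPM, Psmb6 at 94.6 to 106 and Psmb7 at 101 to 115, ranges that overlapped those of DMSO. Their adjusted p was 0.154 to 0.95 with DSHN and 0.446 to 0.853 with GW3965.

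**Figure D4:**
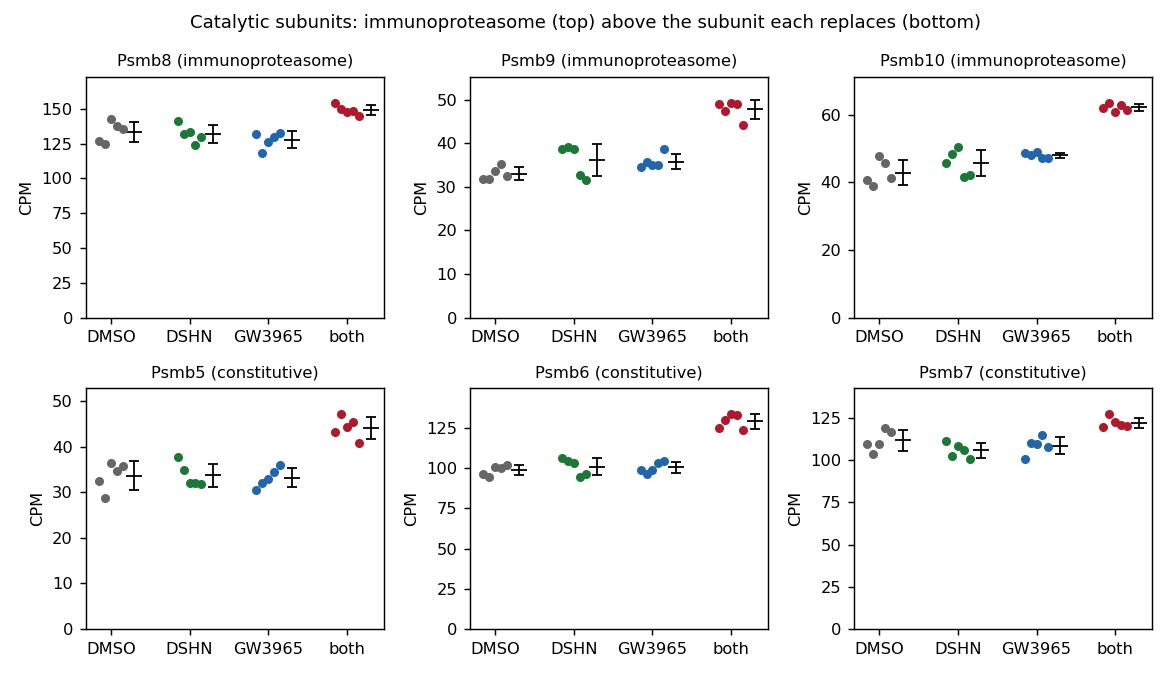
CPM of the 3 immunoproteasome subunits (top) and of the constitutive subunit each replaces (bottom) in all 20 libraries, with the mean and SD of each group of 5; axes start at 0. All 6 genes are highest with both compounds in these CPM values; with the length correction Psmb9 and Psmb10 stay higher than DMSO and Psmb8 and Psmb7 are lower.

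Ratios of paired subunits compare the genes of 1 catalytic site within each library. Per kilobase, the ratio of Psmb8 to Psmb5 was 2.84 ± 0.155 (SD, n = 5) in DMSO libraries, while Psmb9 stood at 0.338 ± 0.0127 of Psmb6 and Psmb10 at 0.319 ± 0.0256 of Psmb7. With both compounds the Psmb10 to Psmb7 ratio was 0.424 ± 0.00921, and its lowest library (0.413) was above the highest DMSO library (0.362). The difference of mean log2 ratio was 0.41, and 0.46 with the length correction (two-sided exact permutation p = 0.00794 each, the smallest that 5 against 5 allows, and 0.017 and 0.0198 after Benjamini-Hochberg adjustment over 15 comparisons). The Psmb9 to Psmb6 ratio was 0.374 ± 0.0135 with both, a log2 difference of 0.15, and 0.14 with the correction (exact permutation p = 0.00794, adjusted 0.017 and 0.0198). The Psmb8 to Psmb5 ratio went the other way, to 2.41 ± 0.120. Its log2 difference was -0.24, and -0.16 with the correction (exact permutation p = 0.00794, adjusted 0.017 and 0.0198). Relative to their partners, Psmb9 and Psmb10 were thus higher and Psmb8 was lower.

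With single compounds the differences in these ratios were smaller in value. With GW3965 the Psmb10 to Psmb7 ratio was 0.369 ± 0.0215, a log2 difference of 0.21 from DMSO (exact permutation p = 0.0159, adjusted 0.0298), and the Psmb9 to Psmb6 ratio was 0.360 ± 0.0141 (0.09, exact permutation p = 0.0317, adjusted 0.0529). With DSHN they were 0.360 ± 0.0296 (0.17, exact permutation p = 0.0635, adjusted 0.0952) and 0.361 ± 0.0203 (0.09, exact permutation p = 0.0794, adjusted 0.108). Both compounds exceeded GW3965 alone for Psmb10 to Psmb7 by 0.20 and DSHN alone by 0.24 (exact permutation p = 0.00794, adjusted 0.017 each). For Psmb9 to Psmb6 the same differences were 0.06 and 0.05, with exact permutation p of 0.151 and 0.278.

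Among the other core genes, 6 of 7 alpha ring genes and all 4 structural beta genes (Psmb1, Psmb2, Psmb3 and Psmb4) rose with both compounds against DMSO without the correction. The beta genes gained 0.32 to 0.39 on the log2 scale. With the correction the 4 were at -0.07 to 0.02 (adjusted p = 0.0755 to 0.66), and their median was -0.01. In the alpha ring, 2 genes were called higher and 1 lower with the correction. Of all tested genes 31.9% were called higher without the correction, and 28.8% higher and 29.3% lower with it. Psma3 had 77.75, 73.7, 80.35, 81.1 and 77.9 CPM with DMSO and 90.2, 91.9, 94.7, 98.0 and 94.4 with both. The groups did not overlap, and the log2 fold change was 0.26 (SE 0.04, adjusted p = 8.05e-07) both without and with the correction (adjusted p = 1.08e-06). Psma7 rose by 0.39, and by 0.15 with the correction (adjusted p = 0.000405). Psma6 had the smallest difference of the ring, 0.08 (adjusted p = 0.103), and was lower with the correction, at -0.26.

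In the regulatory particle, 5 of the 6 ATPase genes were higher with both compounds than with DMSO without the correction. Of all tested genes 31.9% were higher and 32.9% lower, and 28.8% and 29.3% with the correction. The 5 ATPase genes gained from 0.16 for Psmc6 to 0.27 for Psmc1. With the correction those 5 were at -0.06 to 0.05 (adjusted p = 0.186 to 0.749). Psmc2, the sixth ATPase, had 135, 129, 123, 128 and 132 CPM with DMSO and 114, 117, 109.9, 108 and 106 with both. All 5 libraries with both compounds lay below the DMSO libraries. It fell by 0.22 (log2 fold change -0.22, SE 0.03, adjusted p = 3.71e-06), and its corrected log2 fold change was -0.43. It was also lower with DSHN alone (-0.11, adjusted p = 0.0204) and with GW3965 alone (-0.09, adjusted p = 0.0364).

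Of the 11 non-ATPase genes of the particle, 3 were higher and 1 lower with both compounds against DMSO, and 2 were higher and 5 lower with the correction, where 31.9% and 32.9% of all tested genes were called without it and 28.8% and 29.3% with it. Psmd4, a ubiquitin receptor, had 86.0, 83.6, 88.4, 92.5 and 90.1 CPM with DMSO and 108, 121, 121, 119 and 115 with both. It rose by 0.41 (SE 0.04, adjusted p = 6.14e-09), and by 0.13 with the correction (adjusted p = 0.00137). Psmd8 and Psmd13 were the others, at 0.33 and 0.29. With the correction Psmd8 was at 0.08 (adjusted p = 0.0072) and Psmd13 at 0.04 (adjusted p = 0.213). Psmd3, a scaffold subunit of the lid, was lower by 0.13 (-0.13, adjusted p = 0.00638), and its corrected value was -0.28. Psmd14, the deubiquitinase of the lid, was at -0.04 (adjusted p = 0.336) without the correction and at -0.29 with it.

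The 3 chaperones that help to assemble the base, Psmd5, Psmd9 and Psmd10, all rose with both compounds against DMSO without the correction. Of all tested genes 31.9% were higher without it and 28.8% with it. Psmd9 had 22.7, 22.7, 24.2, 26.3 and 22.6 CPM with DMSO, 27.5, 26.3, 25.4, 24.0 and 23.1 with DSHN, 23.0, 22.8, 25.05, 24.6 and 23.9 with GW3965, and 30.7, 31.75, 33.3, 31.8 and 32.1 with both. The last group stood clear of the other 3. Psmd9 is 2592 bases long in the files. Its log2 fold change was 0.43 (SE 0.05, adjusted p = 5.65e-08) without the correction and 0.35 (adjusted p = 1.06e-06) with it. Psmd5 and Psmd10 were at 0.17 and 0.32 without it and at 0.00 and 0.06 with it, where neither was called.

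The activators parted ways. Psme1 and Psme2 encode the 2 chains of the 11S cap that interferon induces, and their genes lie near each other on chromosome 14 (GRCm39, 55815951 to 55818984 and 55824897 to 55828558). Psme1 had 114, 110.4, 123, 124 and 119.8 CPM with DMSO and 155, 153, 159, 156 and 161 with both. Psme2 had 102, 94.9, 106, 111 and 108 CPM with DMSO and 134.5, 134, 138, 133 and 135 with both. Neither overlapped between these groups, and they rose by 0.41 (SE 0.04, adjusted p = 4.46e-09) and 0.37 (SE 0.05, adjusted p = 2.12e-07). Both genes are 977 bases long in the files, and with the correction they were at 0.05 and 0.01 and not called. Psme2b is a near copy of Psme2, so reads could be split between them, and 24.48% of its exon bases lie under 9930111J21Rik1 on the same strand. Its values of 5.59 to 7.81 CPM over the 20 libraries are uncertain for both reasons.

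Psme4 encodes PA200, a large nuclear cap of the core. It had 192, 183, 169, 177 and 178.5 CPM with DMSO, 172, 177, 177, 192 and 194 with DSHN, 204, 193, 195, 195 and 188 with GW3965, and 127, 127, 125, 120.2 and 127 with both. All libraries with both compounds were below the other 15. Psme4 fell by 0.52 against DMSO (log2 fold change -0.52, SE 0.04, adjusted p = 7.85e-12), by 0.64 against GW3965 (-0.64, adjusted p = 1.84e-12) and by 0.54 against DSHN (-0.54, adjusted p = 1.37e-11). It has the longest exon model of the set, 7649 bases, and with the correction the values were -0.30, -0.43 and -0.33, all called. Psme4 was thus the gene with the largest fall against DMSO without the correction, and Psmc2 with it.

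Psme3 encodes the nuclear cap PA28 gamma. It had 124, 114, 114, 128 and 127 CPM with DMSO, 109, 99.15, 102, 104 and 108 with DSHN, 92.6, 94.1, 100.2, 108 and 102 with GW3965, and 109, 105, 107, 126 and 112 with both. With each single compound all 5 libraries lay below the DMSO libraries, while those with both compounds overlapped them. It fell by 0.22 with DSHN (-0.22, SE 0.05, adjusted p = 0.00126) and by 0.29 with GW3965 (-0.29, SE 0.05, adjusted p = 2.38e-05). The length correction left -0.20 and -0.27, both called. With both compounds it was at -0.12 (adjusted p = 0.0395). That call was lost with the length correction (-0.05, adjusted p = 0.379) with scaling by total counts (adjusted p = 0.0582), with the stricter filter (adjusted p = 0.0601) and without any of 7 single libraries, namely DMSO replicate 1, 4 or 5 or replicate 1, 2, 3 or 5 with both compounds (adjusted p = 0.0644 to 0.12). Psmf1, the inhibitor, had 30.7, 31.7, 30.8, 30.8 and 33.6 CPM with DMSO and 33.8, 34.0, 33.4, 33.4 and 29.25 with both, and was not called in any comparison. Its exon model overlaps Tmem74b over 18.24% of its bases, but that gene had at most 4 counts a library.

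Each compound alone gave fewer calls among these genes than both together. With DSHN, 0 of the 46 genes were higher and 8 lower than with DMSO, where 28.9% of all tested genes were called, 14.1% higher and 14.8% lower. At an unadjusted p under 0.05, 2 genes were higher in edgeR's quasi-likelihood test, Psmd8 and Psmb9. DESeq2 called 1 gene higher. Most falls sat in the regulatory particle. There 5 of 11 non-ATPase genes (Psmd1, Psmd3, Psmd6, Psmd7 and Psmd12) and the ATPase gene Psmc2 fell by 0.08 to 0.18. The others were Psme3 and Psmc3ip, which is no proteasome gene. Psmd12, a lid subunit, had 101, 87.8, 94.95, 98.2 and 107 CPM with DMSO and 94.1, 83.4, 89.7, 83.2 and 81.2 with DSHN, ranges that overlap. Its log2 fold change was -0.18 (SE 0.05, adjusted p = 0.00582). For 3 genes, Psme3, Psmd3 and Psmc2, all DSHN libraries lay below the DMSO libraries, against 9.61% of all tested genes, and for 0 genes above, against 9%. With the length correction 0 genes were higher and 10 lower, where 30.1% of all genes were called, 15% higher and 15.1% lower. The count of lower genes was 3 without DMSO replicate 5, and 5 without DMSO replicate 1, DSHN replicate 3 or DSHN replicate 4. The core genes, catalytic and structural, had adjusted p of 0.0792 to 0.997 with DSHN without the correction, while Psmb7 and Psma1 were among the 10 lower genes with it.

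With GW3965, 7 genes were higher and 6 lower than with DMSO, where 46.5% of all tested genes were called, 23.6% higher and 23% lower. Scaled by total counts alone in place of TMM the split was 1 higher and 14 lower, so the balance of directions rests on the scaling. The scaling moved the median of all genes from 0.01 to -0.05. Psma7, an alpha subunit, had 93.8, 99.1, 102, 111 and 105 CPM with DMSO and 112, 115, 117, 116 and 116 with GW3965. The groups did not overlap, and the log2 fold change was 0.17 (SE 0.04, adjusted p = 0.00227). Psmd8 was higher by 0.13 (SE 0.03, adjusted p = 0.00134), with 211, 218, 219, 227 and 222 CPM against 237.5, 239, 246, 240.4 and 238. Scaled by total counts its value was 0.07 (adjusted p = 0.0748). Psmb10 was higher by 0.16 (SE 0.05, adjusted p = 0.0133), with DMSO and GW3965 libraries overlapping. That call was lost without DMSO replicate 2 (0.13, adjusted p = 0.0517) and under total counts (0.11, adjusted p = 0.107). Psmd12 and Psmd7 fell by 0.16 and 0.11. The libraries did not overlap for 2 genes higher (Psma7 and Psmd8) and 2 lower (Psme3 and Psmc3ip), against 16.6% and 15.5% of all tested genes. Of these, Psmc3ip is no proteasome gene. With the length correction 4 were higher and 9 lower, where 47.9% of all genes were called, 24.7% higher and 23.2% lower. The count of higher genes was 3 without DMSO replicate 2, and 4 without DMSO replicate 1 or GW3965 replicate 5, and that of lower genes was 3 without DMSO replicate 5. This comparison and the last share the DMSO libraries.

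**Figure D5:**
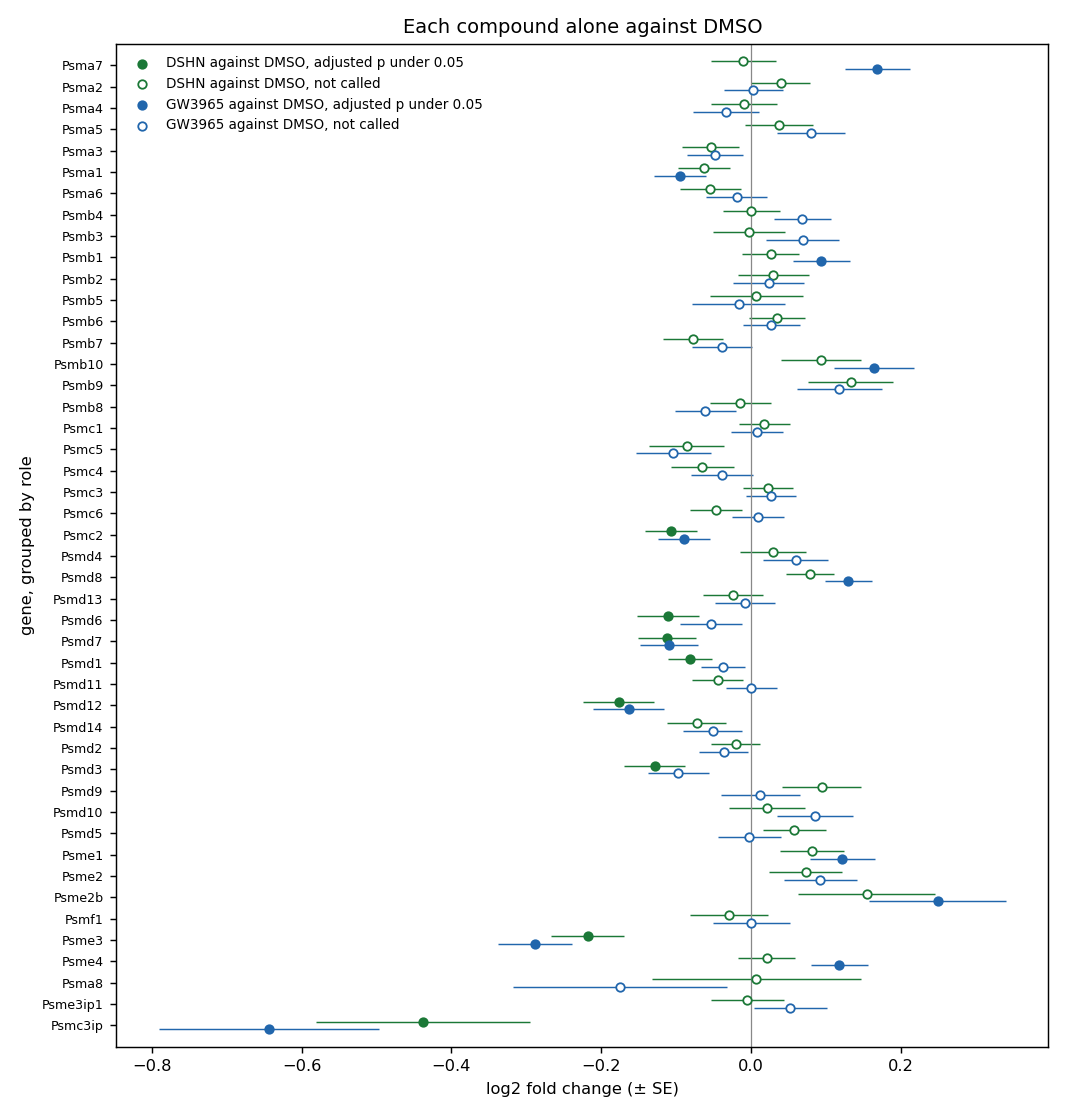
Log2 fold change (± SE) of the 46 tested genes with DSHN and with GW3965, each against the same 5 DMSO libraries and grouped by role; filled points have an adjusted p under 0.05. All 8 filled DSHN points lie below 0; 7 filled GW3965 points lie above 0 and 6 below, a split that became 1 above and 14 below when libraries were scaled by total counts.

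Psmc3ip, which is no proteasome gene, had the largest falls with single compounds. It was at 5.21 ± 0.718 CPM (SD, n = 5) with DMSO, 3.80 ± 0.677 with DSHN and 3.31 ± 0.705 with GW3965, log2 fold changes of -0.44 (adjusted p = 0.022) and -0.64 (adjusted p = 0.000747). The first call was lost without DMSO replicate 5 or DSHN replicate 3, 4 or 5 (adjusted p = 0.0504 to 0.0703). Of its exon bases 39.15% lie opposite Mlx, and the counting did not use strand, so these reads cannot be assigned to either gene.

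Without the length correction, the effect of DSHN differed with and without GW3965 for most of the set. In the interaction, the DSHN effect in the presence of GW3965 minus that in its absence, 36 of the 46 genes were positive and 1 negative, where 50.2% of all tested genes were called, 23.7% higher and 26.5% lower. With the length correction 11 were positive and 4 negative (44.2% of all genes, 20.3% and 23.9%). Of the 41 tested proteasome genes other than Psmb8, Psmb9 and Psmb10, 31 were positive and 1 negative, and 9 and 4 with the correction. Psmc5, an ATPase, was at 0.42 (adjusted p = 1.89e-05) and at 0.19 with the correction (adjusted p = 0.012). Psma1 was at 0.40 (adjusted p = 3.52e-07) and 0.16 (adjusted p = 0.00192). Psme4 was at -0.66 (adjusted p = 1.09e-09) and -0.46 (adjusted p = 5.20e-09). For the catalytic genes Psmb5, Psmb6, Psmb7, Psmb8, Psmb9 and Psmb10 the interaction was called without the correction, from 0.24 to 0.41, and with it they were at -0.02 to 0.12 (adjusted p = 0.163 to 0.929).

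The 6 genes with an ARE core in the promoter window did not move together. The core stood in 6 of 44 windows of the set, against 12.39% of the windows over all genes. Its part in these changes was not tested. With both compounds against DMSO, Psmb5, Psmb6, Psmc6 and Psmd9 rose without the correction, Psmd12 was at 0.00 and Psme4 fell. With the correction Psmd9 alone of the 6 was higher, while Psmd12 (-0.21) and Psme4 were lower. The genes of the factors known for AREs changed by small amounts. Nfe2l1 was at -0.06 (adjusted p = 0.0744) with both compounds against DMSO, and at 0.08 (adjusted p = 0.0129) with the correction. Nfe2l2, the related factor of the oxidative stress response, rose by 0.19 (adjusted p = 0.00017) with DSHN and by 0.15 (adjusted p = 0.0011) with GW3965 and was at 0.04 (adjusted p = 0.386) with both, and at 0.08 (adjusted p = 0.0494) with the correction. Ddi2, the protease that cuts NFE2L1 into its active form, fell by 0.96 (log2 fold change -0.96, SE 0.08, adjusted p = 3.54e-11) with both compounds against DMSO, and the corrected value was -0.94. Of the 13 genes of this pathway, 5 were higher and 3 lower in that comparison, with a median of 0.03, and 6 and 1 with the correction. Over all tested genes 31.9% were higher and 32.9% lower without the correction, and 28.8% and 29.3% with it.

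Assembly factors and proteins that bind the proteasome were also mostly higher without the correction. Of 18, 10 were higher and 3 lower with both compounds against DMSO, with a median log2 fold change of 0.17, and 6 and 2 with the correction, with a median of 0.01. The shares over all tested genes were 31.9% higher and 32.9% lower, and 28.8% and 29.3% with the correction. Pomp, the maturation protein of the core, rose by 0.60 (SE 0.04, adjusted p = 6.76e-12), and by 0.18 with the correction. Sem1, a small lid subunit, rose by 0.63, and by 0.14 with the correction. Usp14, a deubiquitinase that docks on the particle, fell with DSHN (-0.19), with GW3965 (-0.25) and with both (-0.30), and with the correction (-0.21 with both). Zfand5, which stimulates the proteasome, rose by 0.36, and by 0.58 with the correction.

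Against DMSO, enzymes that load ubiquitin fell and the ubiquitin genes Ubb and Rps27a rose with both compounds. With both compounds Uba1 fell by 0.65 (-0.65, SE 0.04, adjusted p = 2.37e-12) and Uba6 by 0.97 (-0.97, SE 0.06, adjusted p = 1.43e-13) against DMSO, and the corrected values were -0.52 and -0.85. Ubb rose by 0.33 and Rps27a by 0.51, and with the correction they were higher by 0.10 and 0.11. Of the 6 ubiquitin and E1 genes, 4 were higher and 2 lower against DMSO, and 3 and 2 with the correction. Of all tested genes 31.9% were higher and 32.9% lower, and 28.8% and 29.3% with it. Against GW3965 the list had 4 higher and 2 lower. With the correction it had 0 and 3, against 22% and 25.1% of all tested genes.

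Genes of MHC class I presentation, which uses the peptides of the immunoproteasome, were 9 higher and 2 lower of 12 with both compounds against DMSO, and 5 higher and 3 lower with the correction. Of all tested genes 31.9% were higher and 32.9% lower without it, and 28.8% and 29.3% with it. H2-D1, a class I heavy chain with close relatives among which reads could be split, rose by 0.25 with each compound alone and by 0.41 with both (0.20 with the correction). Tap1, a chain of the peptide transporter, was at -0.07 (adjusted p = 0.3) with both, and at -0.11 (adjusted p = 0.1) with the correction. The class I activator Nlrc5 fell by 0.62 (-0.62, adjusted p = 3.64e-10) with both, and by 0.40 with the correction. Of 16 interferon factors and targets 4 were higher and 4 lower, shares below those of all tested genes, with a median of -0.10, and 3 and 4 with the correction, with a median of -0.15. Irf8, an interferon regulatory factor of myeloid cells, rose by 0.79 with GW3965 and by 0.59 with both (0.60 with the correction). With both compounds against DMSO, Psmb9 and Psmb10 were higher and Nlrc5 lower, without and with the correction. Psmb8 was higher without the correction and lower with it. Whether these changes are linked was not tested.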

How the data were processed

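Libraries were made from total RNA with a stranded mRNA kit, per the labels' protocols. The deposited files hold raw counts of reads for each gene in 1 library, from featureCounts 2.0.0 per the file headers, after alignment with STAR to GRCm39 per the submitters' processing notes. The headers carry no strand option, so both strands were counted. Each gene's exon length and position were taken as deposited. Symbols came from a RefSeq table (44749 of 46318 genes).

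After filterByExpr and TMM scaling, edgeR 4.0.16 (R 4.3.3) was fitted by quasi-likelihood to all 20 libraries. P-values were adjusted by Benjamini-Hochberg over all 13307 tested genes and called under 0.05. SE is the size of the log2 fold change over the square root of F. For the length correction, a spline (5 degrees of freedom) of log2 CPM, less the gene's mean, on log2 exon length was estimated in each library and used as an offset. Other settings tried were limma 3.58.1 voom, DESeq2 1.42.0, further scalings and filters, a block for the replicate number and omission of single libraries. The fit was tested on simulated data.

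The genes and lists were chosen with earlier results of these data known. Named were the catalytic subunits and those they replace, Psme1 to Psme4, Psmf1, the 4 largest rises and falls called per comparison, Nfe2l1, Nfe2l2, Pomp and up to 4 genes per other list with the smallest adjusted p. Others named were chosen after their values were seen.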

Additional observations from a re-analysis of the deposited data

Results flagged for a closer look

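Single libraries stood apart from the other 4 of their group, by the gap to the nearest library over the group's range (above 0.71), in 5 of 88 combinations of gene and group. Chance gives about 1 in 20 groups. Psmb9 was at 38.76 CPM in GW3965 replicate 5, above 34.49 to 35.67 in the others. Psmd3 was at 89.75 CPM in the same library, above the 86.49 of the next. Psmf1 was at 29.25 CPM in replicate 5 with both compounds, below 33.38 to 33.97 in the others. Psme2b was at 7.667 CPM in DSHN replicate 3 and Psmc2 at 117.4 CPM in DSHN replicate 2.

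The effect of DSHN with and without GW3965 was compared by the interaction term of the edgeR fit. The term was called positive for 36 of the 46 tested genes and negative for 1. Of all tested genes 23.7% were called positive and 26.5% negative. With the length correction 11 were positive and 4 negative, against 20.3% and 23.9% of all tested genes. Without it the largest were Psmc3ip at 0.88, Psmc5 at 0.42, Psmb5 at 0.41, Psma1 at 0.40 and Psme4 at -0.66 on the log2 scale. Of these, Psmc3ip is no proteasome gene. With the length correction Psmb5 was at 0.12 (adjusted p = 0.202), and the other 4 were called.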

How the results depend on the processing

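DESeq2 size factors, limma voom, the stricter filter and fitting only the compared groups left all counts of called genes within 1.5 times those reported. DESeq2 called 1 gene higher with DSHN, against 0. Without a filter, 3 genes were lower with DSHN and 3 with GW3965. Total counts alone gave 1 higher and 14 lower with GW3965, and 1 lower for both compounds against GW3965. Length offsets gave 4 higher with GW3965. For both compounds they gave 8 higher and 11 lower against DMSO, 9 and 8 against GW3965 and 10 and 8 against DSHN. The interaction then had 11 and 4. By construction, the offsets remove what follows exon length. Replicate numbers were not taken to pair the libraries, since not every pair correlated over 0.1: same-numbered libraries correlated at -0.205 to 0.247 (median 0.0399) over 30 pairs, 10 of them over 0.1, and differently numbered ones had a median of -0.00916, with 20 of 120 over 0.1. As a hint from the data, 9 of 20 libraries correlated best with their own number. A replicate block gave 2 genes lower in the interaction, against 1, and moved no other count by over 1.5 times. The replicate block with length offsets gave 4 higher with GW3965, 8 and 11 against DMSO, 8 and 8 against GW3965, 10 and 9 against DSHN, and 11 and 4 in the interaction. Length offsets, without and with the block, reversed 15 of the values followed for the genes chosen by the naming rule, beside the calls of Psma6 and Psmd6 given above. Psmb8 was at -0.1469 and -0.1474 against DMSO, -0.05308 and -0.05281 against GW3965, -0.1007 and -0.1005 against DSHN, and -0.006862 and -0.005916 in the interaction. Psmb7 was at -0.2163 and -0.2155, -0.1348 and -0.134, -0.1013 and -0.101, and -0.01979 and -0.01949. Psme1 was at -0.02679 and -0.0267 against GW3965 and -0.06767 and -0.06768 in the interaction. Psme2 was at -0.03538 and -0.03398 against GW3965, -0.02262 and -0.02189 against DSHN, and -0.0679 and -0.06665 in the interaction. These values of Psme1 and Psme2 changed sign but were not called in the edgeR fit (adjusted p = 0.273 to 0.687). Neither were Psmb8 against GW3965 (adjusted p = 0.235 and 0.199) or Psmb8 and Psmb7 in the interaction (adjusted p = 0.777 to 0.934). Nfe2l1 was at 0.07732 and 0.07706 against DMSO and 0.06933 and 0.06916 against DSHN. The Psmb8 to Psmb5 ratio against GW3965 lost its call (adjusted exact permutation p = 0.0595). Leaving out each library gave 0 to 2 higher and 3 to 11 lower with DSHN, 3 to 7 and 3 to 8 with GW3965, 30 and 3 to 4 for both compounds against DMSO, 34 to 37 and 2 against GW3965, 34 to 36 and 2 against DSHN, and 35 to 37 and 1 to 2 in the interaction. Where no construction is named, the cause was not tested.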
